A study of Homo sapiens with 24 samples.

Results

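The death receptors and the genes of extrinsic apoptosis were followed as 10 genes: the ligand TNFSF10, the receptors TNFRSF10A, TNFRSF10B, TNFRSF10C, TNFRSF10D, FAS and TNFRSF1A, and the signalling complex genes FADD, CASP8 and CFLAR. They were chosen by name, as every probe that is not a control and that the array files assign to one of these genes. This gave 15 of the 34127 probes on the array, whose files hold 27274 distinct names. FAS has 3 probes, TNFSF10, CASP8 and CFLAR have 2 each, and each of the other genes has 1.

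The extrinsic pathway starts when a ligand of the tumour necrosis factor family binds a receptor that carries a death domain in its cytoplasmic part. The receptor then recruits the adaptor FADD, which brings in procaspase-8, and caspase-8 activated in this complex cleaves effector caspases or the BCL2 family member BID. Decoy receptors bind ligand without passing on a full death signal, and CFLAR, a relative of caspase-8 without protease activity, limits caspase-8 activation. Colon cancer cells are often studied for how histone deacetylase inhibitors such as butyrate alter their response to these ligands.

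Gene expression was measured by 1-colour arrays in HCT-116, a human colorectal carcinoma cell line. All 4 groups were 1 stably transfected clone that carries a dominant-negative Tcf4 (DN-Tcf4, which blocks Wnt target genes) under doxycycline control. The groups were untreated cells (Ctl), cells with 5 mM sodium butyrate (NaB), cells with 4 µg/ml doxycycline (Doxy) and cells with both agents (DoxyNaB), with butyrate present for 17.5 hr. Each of 6 experiments gave 1 array per group, 24 arrays in all. The p-values measure the spread between these 6 experiments on 1 clone. The level of a probe is the log2 of its signal divided by that array's 75th percentile (control spots left out), so that a difference of 1 is 2-fold. A level can be compared between arrays, but not between probes. A fall in signal can reflect less RNA per cell or fewer cells with that RNA, which these bulk samples cannot tell apart.

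By the scanner software's own test, 52.5% to 88.1% of an array's spots, controls aside, exceeded background clearly (well above background). The mean signal of the negative controls was 48.4 to 76.9 on Ctl arrays, 49.5 to 79.6 on Doxy arrays, 48.8 to 161 on NaB arrays and 51.2 to 248.9 on DoxyNaB arrays, so the highest values came with butyrate. Their part in the results was not tested directly. With the 2 brightest of these arrays left out (NaB of experiment 3 and DoxyNaB of experiment 2), the NaB/Ctl changes were -2.35 for FAS, -1.99 for TNFRSF1A, -1.44 for CASP8 and -2.97 for CFLAR, all called. In experiment 1 the butyrate arrays lay on another slide and in another scan than the arrays without butyrate. Slide, scan and butyrate cannot be told apart there. The brightest TCF7L2 probe, the gene of Tcf4, had a median level of -1.86 in Ctl, -1.49 in NaB, -2.64 in Doxy and 1.49 in DoxyNaB, and was well above background on all 24 arrays. It was higher with both agents than with either alone, by 4.04 over Doxy (adjusted p = 1.07e-08). A second TCF7L2 probe moved the same way (6.06 in DoxyNaB/Doxy) and another the opposite way (-1.70), so the probes of the gene disagreed. Of 7 colon epithelial markers 6 could be tested, and their summed level was 209.2 to 299.0 times the array's 75th percentile in Ctl and 273.8 to 501.5 times in NaB. VIL1 was the marker that could not. EPCAM was called lower in NaB/Ctl (-1.45), whereas the summed level was higher, with a median of 238.5 in Ctl and 331.8 in NaB. The changes of the other colon markers are not given here. Of 13 markers of leukocytes, endothelium and fibroblasts 5 could be tested, CD14, CD68, VWF, CDH5 and COL1A1, and the summed level of the 13 was 0.648 to 1.23 in Ctl, 1.21 to 2.83 in NaB, 0.679 to 1.32 in Doxy and 1.44 to 3.85 in DoxyNaB. VWF (2.77), CD14 (1.35) and COL1A1 (1.09) were called higher in NaB/Ctl, as were 20.7% of all probes. The changes of CD68 and CDH5 are not given here. COL3A1 was well above background on 0 of 24 arrays. The summed levels moved with butyrate, and the part of the markers in the results was not tested.

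FAS, CFLAR and CASP8 each have a probe that reads coding sequence, and these 3 are shown as the stretches of transcript they measure. For FAS and CASP8 another probe was brighter. Each is 60 bases long, is written 5′ to 3′ and lies on the plus strand of NCBI36. The FAS probe (chr10:90764128-90764187) holds an open frame that ends in a stop codon, marked in capitals. The CFLAR probe (chr2:201708976-201709035) and the CASP8 probe (chr2:201844501-201844560) lie in the stretches that encode death effector domains, the modules by which both proteins join FADD.
FAS: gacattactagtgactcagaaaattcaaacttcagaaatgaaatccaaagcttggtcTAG
CFLAR: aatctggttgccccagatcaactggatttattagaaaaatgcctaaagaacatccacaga
CASP8: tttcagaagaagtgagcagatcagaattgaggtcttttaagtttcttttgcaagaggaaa

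A probe was tested where 1 group or more had it well above background on each of its 6 arrays, which 12 of the 15 probes and 9 of the 10 genes passed. Both TNFSF10 probes and 1 CASP8 probe did not. A probe was called when it changed over 2-fold with a Benjamini-Hochberg adjusted p under 0.01 in limma, over all 18962 probes tested. In NaB/Ctl, 7 of the 12 probes were called lower, against 11% of all probes, and 0 were called higher, against 20.7% of all probes. The 7 probes belong to FAS, TNFRSF1A, CASP8 and CFLAR. Those of TNFRSF1A and CFLAR and the coding FAS probe could be tested only through groups without butyrate, where they were brighter. The count of falls therefore depends in part on this filter, and the counts under a stricter one are given at the end. In DoxyNaB/Doxy, 8 of the 12 were called lower, against 12.3% of all probes, and 0 higher, against 18.3%. TNFRSF10A joined the same 4 genes there. At the adjusted p alone, without the 2-fold threshold, 11 of 12 member probes passed in NaB/Ctl, against 68.3% of all probes, and 10 of 12 in DoxyNaB/Doxy, against 67.0%. The median change of the 12 probes was -1.54 in NaB/Ctl, where that of all probes was 0.17, and -1.75 in DoxyNaB/Doxy, where that of all probes was 0.10. These medians count FAS and CFLAR by more than 1 probe each. With 1 probe per gene, the median of the 9 genes was -0.76 in NaB/Ctl, with 4 called, and -1.19 in DoxyNaB/Doxy, with 5 called.

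**Figure D1:**
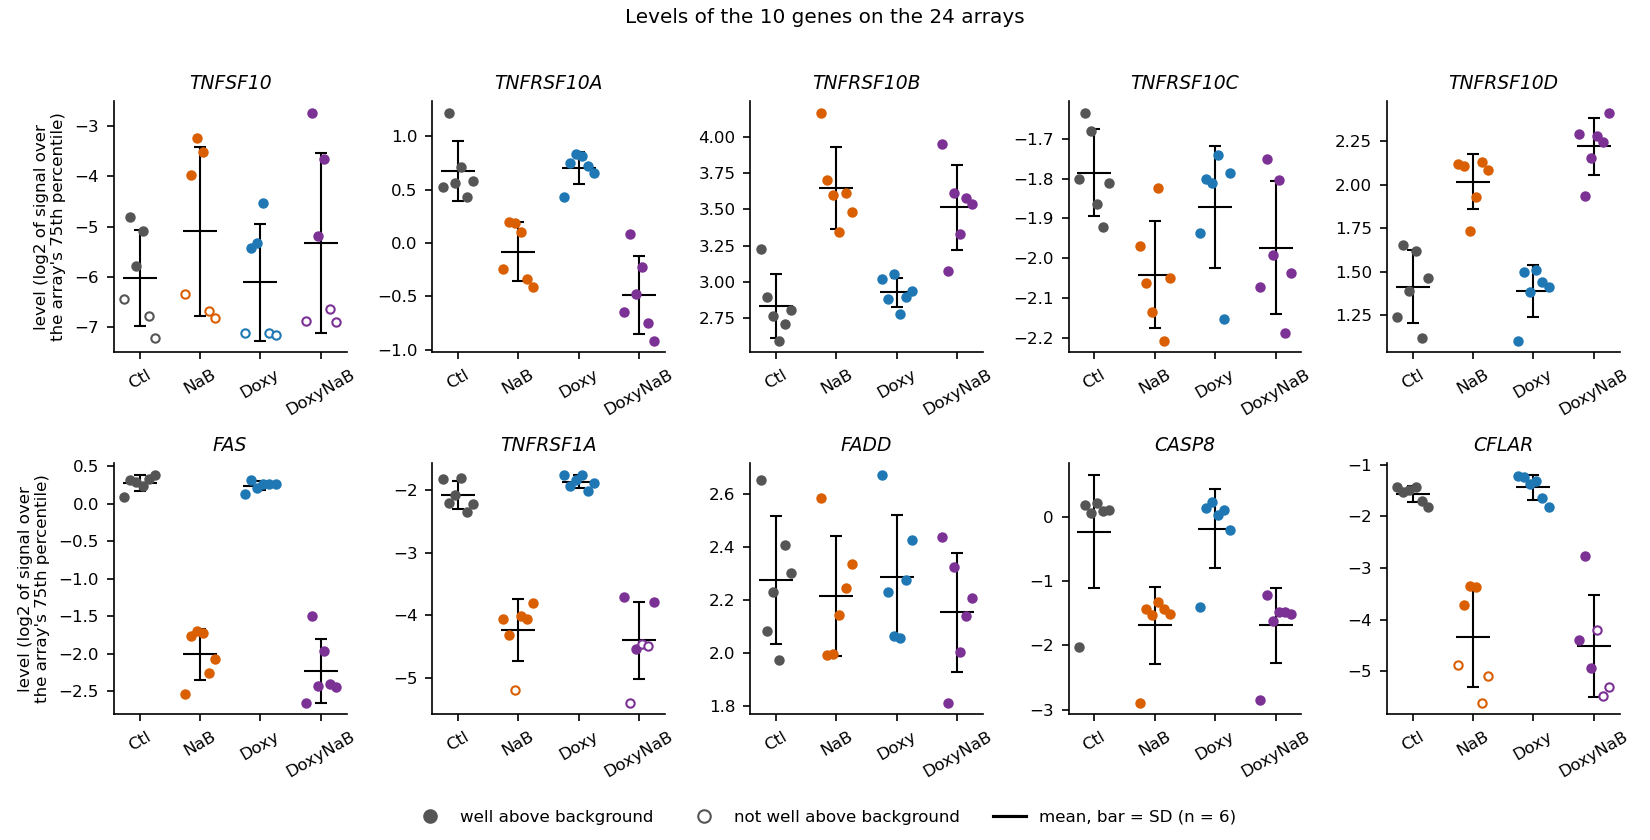
Level of each of the 10 genes by its brightest probe (y axis, log2 of signal over the array's 75th percentile) in the 4 groups (x axis), 1 point per array in order of experiment 1 to 6, with the mean and SD over 6 arrays and open points for arrays not well above background. FAS, TNFRSF1A and CFLAR sat lower on every butyrate array than on any array without butyrate, whereas FADD overlapped in all 4 groups.

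TNFSF10, which encodes the ligand TRAIL, was near the detection limit in all groups. Its brighter probe was well above background on 3 of 6 arrays in each group, always those of experiments 2 to 4. Levels ran from -7.22 over a median of -6.12 to -4.80 in Ctl, and from -6.83 over -5.16 to -3.24 in NaB. In Doxy they ran from -7.15 over -6.27 to -4.53, and in DoxyNaB from -6.90 over -5.91 to -2.73. The groups overlapped. Within experiments this probe was higher with butyrate in 6 of 6 pairs in both comparisons, by 0.09 to 2.55 in NaB/Ctl and by 0.14 to 2.69 in DoxyNaB/Doxy, but values below background have no order. Without the filter on dim probes the change was 0.93 in NaB/Ctl (adjusted p = 0.0288) and 0.78 in DoxyNaB/Doxy (adjusted p = 0.070), which missed the threshold. A ligand gene of this level allows no statement on its change.

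The TRAIL receptors did not move as one group. TNFRSF10A (DR4), one of the 2 TRAIL receptors with a functional death domain, was lower with butyrate. Its levels in Ctl ran from 0.43 over a median of 0.57 to 1.22, and in NaB from -0.41 over -0.07 to 0.20. In Doxy they ran from 0.43 over 0.74 to 0.83 and in DoxyNaB from -0.92 over -0.57 to 0.08. No butyrate array reached the lowest array without butyrate. The change was -0.76 ± 0.10 (SE; adjusted p = 2.03e-06) in NaB/Ctl, 1.69-fold and short of the threshold, and -1.19 ± 0.10 (adjusted p = 5.12e-09) in DoxyNaB/Doxy, 2.28-fold lower and called. It was lower in 6 of 6 experiments in both. With normexp background correction the change in DoxyNaB/Doxy was -0.88 and lost the call, and with scaling to the median that in NaB/Ctl was -1.50 and gained it.

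TNFRSF10B (DR5), the other receptor with a death domain, was higher. Its levels ran from 2.59 over a median of 2.79 to 3.23 in Ctl, from 3.34 over 3.60 to 4.16 in NaB, from 2.78 over 2.92 to 3.05 in Doxy and from 3.07 over 3.56 to 3.95 in DoxyNaB. NaB and Ctl did not overlap, nor did DoxyNaB and Doxy. The change of 0.82 ± 0.09 (adjusted p = 2.17e-07) in NaB/Ctl was 1.76-fold, that of 0.58 ± 0.09 (adjusted p = 1.39e-05) in DoxyNaB/Doxy was 1.5-fold, and both were short of 2-fold. It was higher in 6 of 6 experiments in each. The size depended on the scaling: in NaB/Ctl it was 1.03 with quantile normalization and 1.04 with normexp, both called, but 0.07 with scaling to the median (adjusted p = 0.811).

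TNFRSF10D, which encodes a decoy receptor with a truncated death domain, ran from 1.12 over 1.43 to 1.66 in Ctl and from 1.73 over 2.10 to 2.13 in NaB. Its levels in Doxy were 1.10 over 1.43 to 1.51, and in DoxyNaB 1.94 over 2.26 to 2.41. The groups with and without butyrate did not overlap. The change was 0.60 ± 0.10 in NaB/Ctl (adjusted p = 3.63e-05) and 0.83 ± 0.10 in DoxyNaB/Doxy (adjusted p = 8.16e-07), both short of 2-fold, and with scaling to the median the first turned to -0.15 (adjusted p = 0.600). TNFRSF10C, the decoy receptor bound to the membrane by a lipid anchor, lay between -1.92 and -1.63 in Ctl, with a median of -1.81, and between -2.21 and -1.82 in NaB, with a median of -2.06. It lay between -2.15 and -1.74 in Doxy, with a median of -1.81, and between -2.19 and -1.75 in DoxyNaB, with a median of -2.01. These groups overlapped. The change was -0.26 ± 0.07 (adjusted p = 0.00177) in NaB/Ctl and -0.10 ± 0.07 (adjusted p = 0.166) in DoxyNaB/Doxy, and with normexp the latter was 0.11. In NaB/Ctl it was called lower with quantile normalization (-1.09) and with scaling to the median (-1.01), 2 of 19 alternatives.

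Since 2 probes of the same array share its scaling factor, the difference between their changes does not move with a factor applied to the whole array. TNFRSF10B changed by 1.57 ± 0.23 (SD, n = 6) more than TNFRSF10A in NaB/Ctl, between 1.21 and 1.82 in the 6 experiments, and by 1.77 ± 0.49 more in DoxyNaB/Doxy, between 0.86 and 2.16. TNFRSF10D changed by 1.36 ± 0.43 and 2.02 ± 0.51 more than TNFRSF10A. The ratio of either receptor to TNFRSF10A was therefore higher with butyrate in 6 of 6 experiments.

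**Figure D2:**
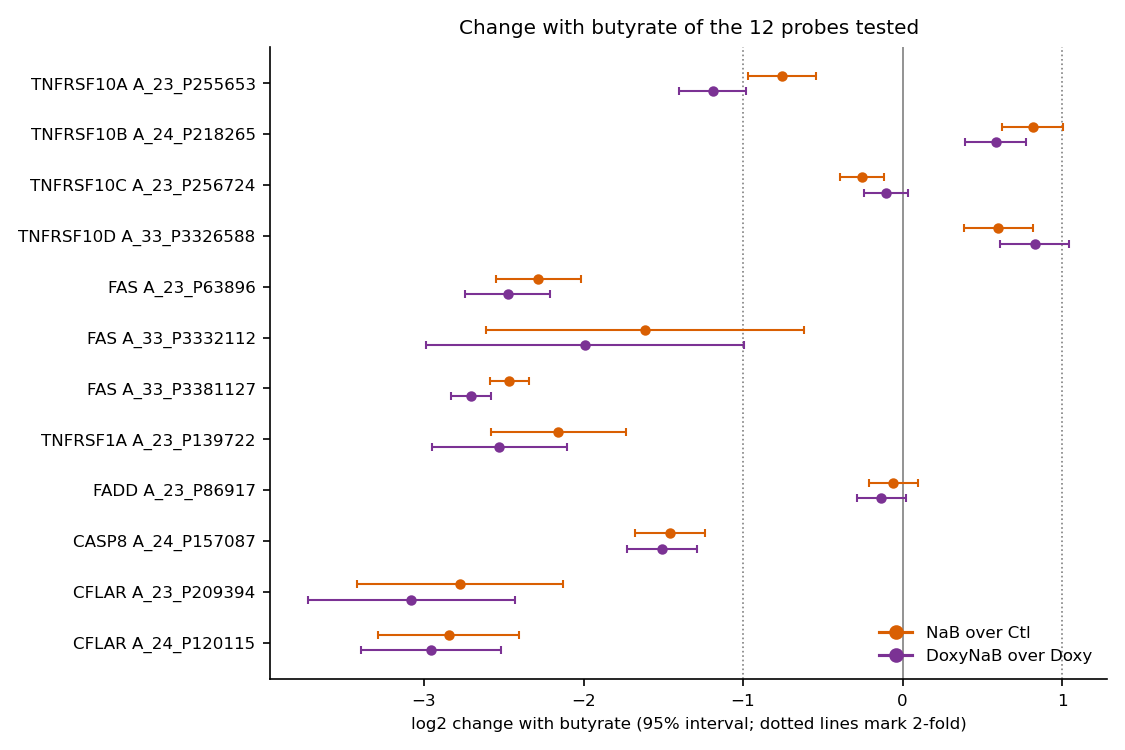
Log2 change with butyrate (x axis) of the 12 probes tested (y axis, gene and probe), with 95% intervals, for NaB over Ctl and DoxyNaB over Doxy; dotted lines mark 2-fold. The probes of FAS, TNFRSF1A, CASP8 and CFLAR lay left of the 2-fold line in both comparisons, and those of TNFRSF10B and TNFRSF10D lay right of 0 but short of 2-fold.

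FAS, the receptor of FAS ligand, fell with butyrate in both comparisons. Its brightest probe (chr10:90764525-90764584, NCBI36) had levels from 0.09 over 0.30 to 0.39 in Ctl and from -2.54 over -1.92 to -1.69 in NaB. In Doxy it ran from 0.13 over 0.26 to 0.31 and in DoxyNaB from -2.66 over -2.41 to -1.50. All arrays were well above background, and no butyrate array reached the level of an array without butyrate. The change was -2.28 ± 0.13 in NaB/Ctl (adjusted p = 1.57e-11), 4.87-fold lower, and -2.47 ± 0.13 in DoxyNaB/Doxy (adjusted p = 5.00e-12), 5.56-fold lower. A second FAS probe (chr10:90764497-90764556), which overlaps the first in sequence, fell by 2.47 ± 0.06 and 2.71 ± 0.06 (adjusted p = 7.87e-16 and 2.99e-16). These 2 probes were called under all 19 alternatives of both comparisons, with changes between -3.43 and -1.53.

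The coding FAS probe printed above was dim, well above background on 4, 1, 6 and 1 of 6 arrays in Ctl, NaB, Doxy and DoxyNaB. Its levels ran from -4.71 over -3.92 to -3.43 in Ctl, from -6.64 over -5.62 to -4.07 in NaB, from -4.99 over -3.33 to -3.10 in Doxy and from -7.59 over -5.70 to -2.81 in DoxyNaB. The groups overlapped. Its changes of -1.61 ± 0.47 and -1.99 ± 0.47 passed (adjusted p = 0.00496 and 0.00100). In NaB/Ctl, however, it kept the call under only 8 of 18 alternatives, and in DoxyNaB/Doxy it was 0.02 with normexp.

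TNFRSF1A, the main receptor of TNF (chr12:6308325-6308384, NCBI36, minus strand), fell from a Ctl range of -2.34 over -2.14 to -1.81 to a NaB range of -5.19 over -4.06 to -3.81. With doxycycline it fell from -2.02 over -1.87 to -1.76 in Doxy to between -5.39 and -3.70 in DoxyNaB, with a median of -4.47. Every array without butyrate had it well above background, as did 5 of 6 in NaB and 3 of 6 in DoxyNaB. The groups were well apart. The change was -2.16 ± 0.20 (adjusted p = 1.88e-08), 4.46-fold lower, in NaB/Ctl and -2.53 ± 0.20 (adjusted p = 2.21e-09), 5.77-fold lower, in DoxyNaB/Doxy. Normexp, which adds an offset and compresses low signals, gave -1.19 and -0.78, and the second was no longer called.

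FADD, the adaptor, showed no change past the test. Levels ran from 1.97 over 2.26 to 2.65 in Ctl, from 1.99 over 2.19 to 2.58 in NaB, from 2.05 over 2.25 to 2.67 in Doxy and from 1.81 over 2.17 to 2.44 in DoxyNaB. All 4 ranges overlapped. The change was -0.06, with a 95% interval from -0.21 to 0.09, in NaB/Ctl (adjusted p = 0.466) and -0.13, from -0.29 to 0.02, in DoxyNaB/Doxy (adjusted p = 0.108). The sign in NaB/Ctl turned with quantile normalization (0.12) and normexp (0.04). Scaled to the median, FADD changed by -0.81.

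CASP8, the initiator caspase of the complex, fell. Its brighter probe (chr2:201860083-201860142, NCBI36) ran from -2.03 over 0.10 to 0.22 in Ctl, from -2.90 over -1.47 to -1.33 in NaB, from -1.40 over 0.07 to 0.23 in Doxy and from -2.85 over -1.49 to -1.22 in DoxyNaB. All arrays were well above background. The lowest value of each group was that of experiment 1, and so the ranges overlapped while every experiment taken alone had lower values with butyrate. The change was -1.46 ± 0.10 in NaB/Ctl (adjusted p = 4.73e-10), 2.75-fold lower, and -1.51 ± 0.10 in DoxyNaB/Doxy (adjusted p = 2.98e-10), 2.84-fold lower. Without experiment 1 it was -1.58 and -1.52, both called, and with normexp it was -1.15 (called) and -0.97 (just short of 2-fold). The coding probe printed above was tested in neither comparison, since it was well above background on 5 of 6 arrays of each group. In experiments 2 to 6 it lay between -1.56 and -1.14 in Ctl, between -3.17 and -2.65 in NaB, between -1.57 and -1.18 in Doxy and between -4.01 and -2.61 in DoxyNaB. The ranges with butyrate did not overlap with those without.

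CFLAR, which encodes c-FLIP and limits caspase-8, fell in both comparisons. The coding probe printed above ran from -1.81 over -1.50 to -1.43 in Ctl and from -5.61 over -4.30 to -3.36 in NaB. In Doxy it ran from -1.81 over -1.34 to -1.23 and in DoxyNaB from -5.48 over -4.66 to -2.77. All 12 arrays without butyrate had it well above background, against 3 of 6 in NaB and in DoxyNaB. No butyrate array overlapped with an array without butyrate. The change was -2.77 ± 0.31 (adjusted p = 1.92e-07), 6.83-fold lower, in NaB/Ctl and -3.08 ± 0.31 (adjusted p = 4.91e-08), 8.45-fold lower, in DoxyNaB/Doxy. It was lower in 6 of 6 experiments in both and called under all 18 alternatives of each, with normexp giving -1.54 and -1.08.

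The second CFLAR probe (chr2:201733443-201733502, NCBI36) ran from -3.66 over -3.47 to -3.14 in Ctl and from -3.55 over -3.29 to -3.05 in Doxy, well above background on all 12 arrays. It was not well above background on any of the 12 butyrate arrays, whose measured means were -6.28 in both groups. Set against the lowest signal that was well above background on those arrays, the fall was at least 2.19-fold in NaB/Ctl and at least 2.5-fold in DoxyNaB/Doxy. These bounds were not tested. The measured changes were -2.85 (adjusted p = 7.43e-10) and -2.96 (adjusted p = 4.42e-10). With normexp the changes were -0.98 and -0.35, smaller than these bounds, and neither was called.

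The fall of CFLAR exceeded that of CASP8 by 1.31 ± 1.03 (SD, n = 6) in NaB/Ctl and by 1.57 ± 0.76 in DoxyNaB/Doxy when both were read on the same array. It did so in 6 of 6 experiments in each comparison, by 0.29 to 2.58 in the first and by 0.17 to 2.25 in the second. The CFLAR side of this ratio is uncertain where its probe was not well above background. In NaB the CFLAR probe was well above background in experiments 2 to 4 only. There the NaB/Ctl changes were -2.20, -1.88 and -1.93 for CFLAR and -1.61, -1.59 and -1.55 for CASP8, so the excess was small. With normexp CFLAR and CASP8 changed by -1.54 and -1.15 in NaB/Ctl, and by -1.08 and -0.97 in DoxyNaB/Doxy. Within the 3 experiments scanned together (2 to 4), the NaB/Ctl changes were -2.01 for FAS, -2.47 for TNFRSF1A, -1.58 for CASP8 and -2.0 for CFLAR. Within the 2 of another scan (5 and 6), they were -2.53, -1.65, -1.57 and -3.59, and all 8 values were called.

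**Figure D3:**
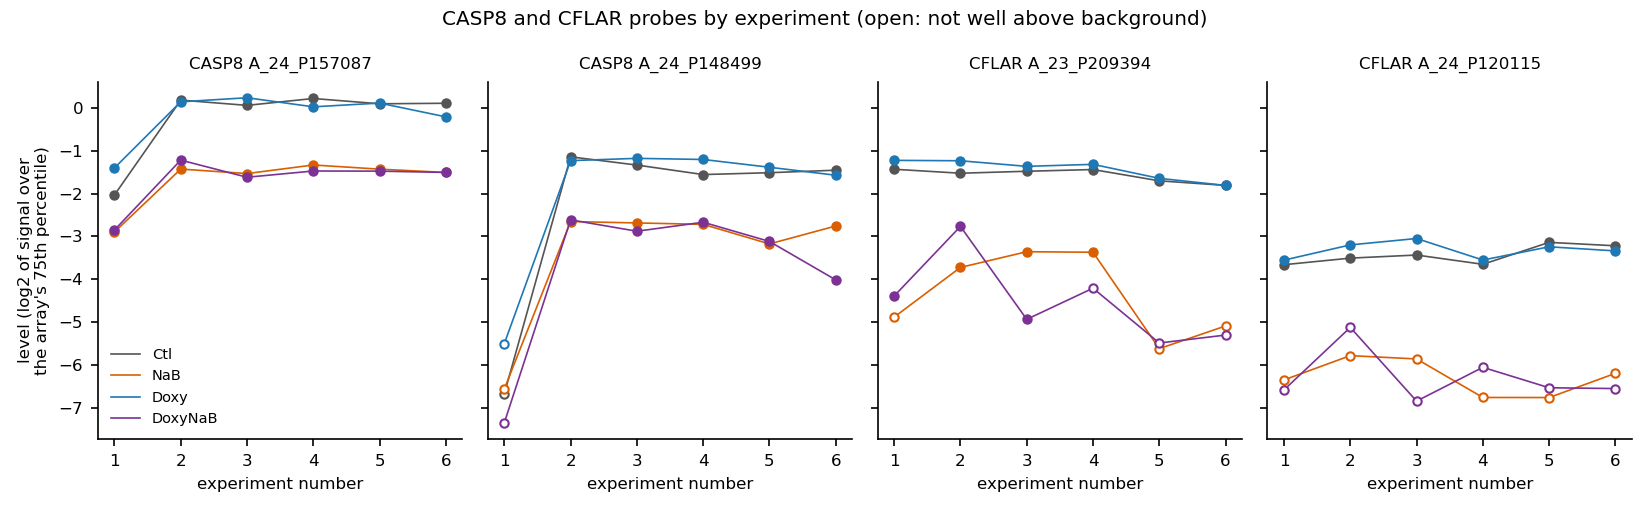
Levels (y axis, log2 of signal over the array's 75th percentile) of 2 CASP8 and 2 CFLAR probes in experiments 1 to 6 (x axis), 1 line per group, with open points for arrays not well above background. Both CASP8 probes were low on all 4 arrays of experiment 1 while the CFLAR probes were not, and the butyrate lines lay below the others in all experiments except the dimmer CASP8 probe of experiment 1.

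The sign of the TNFRSF10D and FADD changes in NaB/Ctl depended on how the arrays were scaled or corrected for background. Scaling to the median moved the median NaB/Ctl change of all probes from 0.17 to -0.58, quantile normalization moved it to -0.09, and normexp to 0.07. Over all probes, 3926 were called higher and 2087 lower with the 75th percentile, 2461 and 3164 with quantile normalization, 1598 and 1403 with normexp, and 1641 and 6123 with the median. Among the member probes, 0 were called higher and 7 lower in NaB/Ctl, against 1 and 8 with quantile normalization, 0 and 9 with the median, and 1 and 5 with normexp, where the probe called higher was that of TNFRSF10B. FAS, TNFRSF1A, CASP8 and CFLAR were called lower in NaB/Ctl under each of these settings by their brightest probes.

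**Figure D4:**
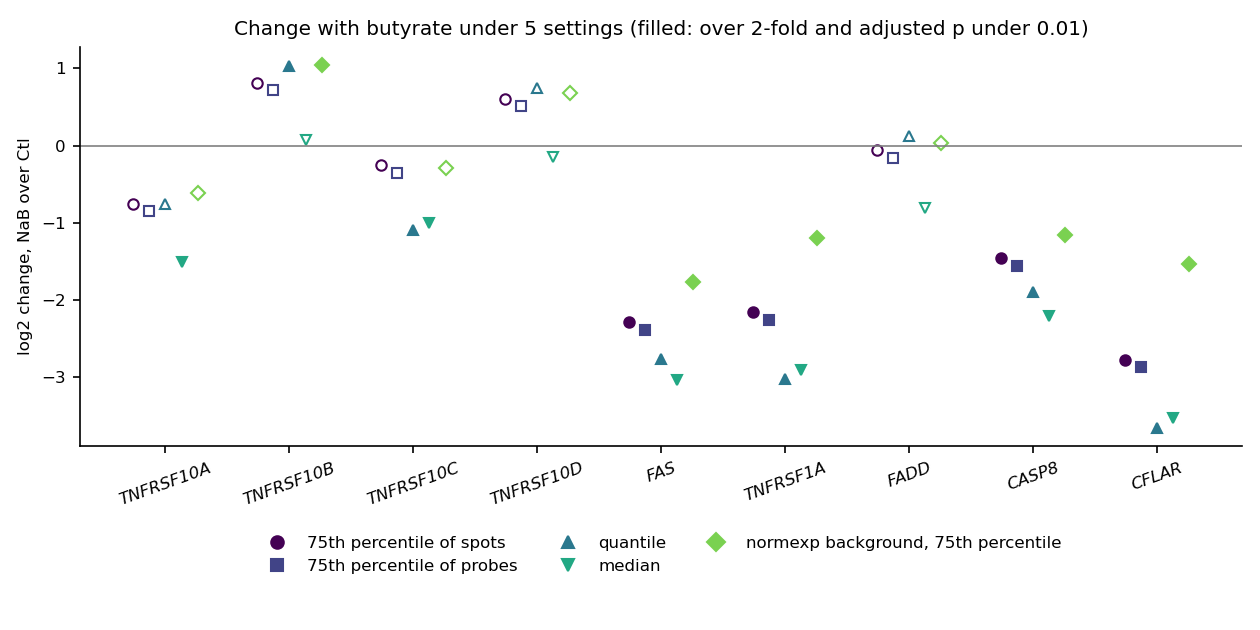
Log2 change of 9 genes in NaB over Ctl (y axis) under 5 settings of background correction and scaling (symbols), filled where the change was over 2-fold with an adjusted p under 0.01. FAS, TNFRSF1A, CASP8 and CFLAR were filled and below -1 under all 5, while TNFRSF10D and FADD crossed 0.

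Upstream sequence was compared because these genes moved together. Of the 10 members, 6 had an entry in the RefSeq promoter table (GRCh38.p14). The 250 bases before the most upstream start in the table are printed for the 4 genes called lower in both comparisons and for FADD, 5′ to 3′ on the gene's own strand, with each GC box (GGGCGG on either strand) in capitals. The array does not show which start the cells use, and the table holds 3 starts for FAS, 4 for CFLAR and 3 for CASP8. The windows are chr10:88990548-88990797 (plus) for FAS, chr12:6342077-6342326 (minus) for TNFRSF1A, chr2:201118466-201118715 (plus) for CFLAR, chr2:201233213-201233462 (plus) for CASP8 and chr11:70203046-70203295 (plus) for FADD.
FAS: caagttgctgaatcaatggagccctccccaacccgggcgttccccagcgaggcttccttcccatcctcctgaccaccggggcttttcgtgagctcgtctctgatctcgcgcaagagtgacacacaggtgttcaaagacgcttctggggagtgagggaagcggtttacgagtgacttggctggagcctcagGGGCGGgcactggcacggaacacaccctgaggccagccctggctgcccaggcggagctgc
TNFRSF1A: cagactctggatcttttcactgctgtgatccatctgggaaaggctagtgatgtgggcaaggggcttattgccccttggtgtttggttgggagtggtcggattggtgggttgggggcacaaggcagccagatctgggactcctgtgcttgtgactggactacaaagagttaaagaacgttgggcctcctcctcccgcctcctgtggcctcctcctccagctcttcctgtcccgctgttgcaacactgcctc
CFLAR: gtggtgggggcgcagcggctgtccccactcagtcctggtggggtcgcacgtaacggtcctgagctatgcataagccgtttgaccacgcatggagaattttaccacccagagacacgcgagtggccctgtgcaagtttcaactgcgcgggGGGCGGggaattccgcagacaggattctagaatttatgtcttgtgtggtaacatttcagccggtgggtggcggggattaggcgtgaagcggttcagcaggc
CASP8: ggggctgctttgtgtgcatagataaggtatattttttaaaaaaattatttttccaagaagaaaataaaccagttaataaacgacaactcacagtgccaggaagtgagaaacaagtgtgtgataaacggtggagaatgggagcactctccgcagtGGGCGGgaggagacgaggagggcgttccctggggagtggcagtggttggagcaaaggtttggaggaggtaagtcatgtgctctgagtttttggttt
FADD: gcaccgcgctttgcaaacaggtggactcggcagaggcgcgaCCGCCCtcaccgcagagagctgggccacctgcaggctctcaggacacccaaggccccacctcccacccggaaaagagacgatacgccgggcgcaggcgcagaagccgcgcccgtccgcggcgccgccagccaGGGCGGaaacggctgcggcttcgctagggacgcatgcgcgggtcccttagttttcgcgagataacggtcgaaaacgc

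FAS, CFLAR and CASP8 each held 1 GC box, FADD held 2 and TNFRSF1A held 0, where 42.6% of the 35116 windows of the same length in the table held at least 1. The CCAAT box (CCAAT on either strand), present in 32.0% of all windows, was found in TNFRSF1A alone of the 5. The TATA box (TATAAA, 10.7% of windows) and the exact string ATCAAAG, 1 form of the Tcf motif (2.26% of windows), were found in none of the 5. Other forms of the Tcf motif were not searched, so their absence is not shown. The share of G and C was 62.8% in FAS, 56.8% in TNFRSF1A, 58.8% in CFLAR, 45.6% in CASP8 and 68.8% in FADD, against a median of 58.0% over all windows. None of the exact strings searched was in all 4 windows of the genes that fell. Other sequences and the windows of other starts were not searched, and whether these genes share a regulatory element was not tested.

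No member was called with doxycycline, the inducer of DN-Tcf4. By western blot the study found little DN-Tcf4 with doxycycline alone and much with both agents. Its reporter assay gave a lower Wnt activity with doxycycline alone than in untreated cells. Among its Wnt target genes, Axin2 and BMP4 were lower with doxycycline alone and Sox9 was higher. Doxy/Ctl therefore speaks only to a low level of DN-Tcf4. In Doxy/Ctl, 0 of 12 probes were called, against 0.0949% of all probes, with changes between -0.09 and 0.37, and 0 had an unadjusted p under 0.05. In DoxyNaB/NaB, 0 of 12 were called, against 0.374% of all probes, and 2 had an unadjusted p under 0.05. The methods' t-test, adjusted, also called 0 members in both, where it called 3 of 18961 probes in Doxy/Ctl and 15 of 18960 in DoxyNaB/NaB. Without the fold threshold, 1 of 12 passed the adjusted p in DoxyNaB/NaB, against 2.48% of all probes. This was the second FAS probe, with levels of -3.16 over -2.69 to -2.58 in NaB and -3.13 over -3.06 to -2.86 in DoxyNaB. It was lower by a difference of -0.29 ± 0.06 (adjusted p = 0.00565), although the ranges overlapped, and the brightest FAS probe gave -0.22 ± 0.13 (adjusted p = 0.448). TNFRSF10A gave -0.41 ± 0.10 (adjusted p = 0.0243) and was lower in DoxyNaB than in NaB in 6 of 6 experiments. It missed the threshold.

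The interaction (NaB/Ctl minus DoxyNaB/Doxy) asks whether the butyrate response differed with doxycycline. All groups carried the DN-Tcf4 construct, so doxycycline itself and DN-Tcf4 cannot be told apart. It passed for 0 of 12 member probes at an adjusted p under 0.01, against 1.24% of all probes. At an unadjusted p under 0.05, 2 of 12 passed, those of TNFRSF10A (0.44 ± 0.14, adjusted p = 0.159) and of the second FAS probe (adjusted p = 0.191). The methods' t-test, adjusted, called 0 of all 18958 probes it tested for the interaction. The values of the 12 probes ran from -0.23 to 0.44, with a median of 0.21 where that of all probes was 0.05. For CASP8 the interaction was 0.05, with a 95% interval from -0.26 to 0.36, and for CFLAR it was 0.31, from -0.61 to 1.22. The CFLAR interval is wide, and a difference of 2-fold between the responses cannot be set aside for it.

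Of 42 other genes of the pathway, 31 could be tested, and 11 were called in NaB/Ctl, 4 higher (against 20.7% of all probes) and 7 lower (against 11%). The median change of the 31 was -0.41. Among 7 ligands, TNFSF14 (LIGHT) rose by 2.55 ± 0.26 and TNFSF12 (TWEAK) fell by 1.97 ± 0.23 by its brightest probe. The other TNFSF12 probe gave -0.73 (adjusted p = 0.102), and FASLG, TNF, LTA, LTB and TNFSF15 were not above background often enough to be tested. FASLG and TNF encode the ligands of FAS and TNFRSF1A. Only 3 of 6 Ctl arrays had TNFSF14 well above background, and with normexp its change was 0.50 (adjusted p = 0.173).

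Among the receptors, LTBR, the lymphotoxin beta receptor, fell by 3.36 ± 0.31, from a Ctl range of 0.63 over 1.49 to 1.92 to a NaB range of -2.63 over -1.92 to -1.24. BID, which links caspase-8 to the mitochondrial pathway, fell by 2.78 ± 0.09, from 2.88 over 2.93 to 3.51 in Ctl to -0.06 over 0.31 to 0.54 in NaB. MLKL, the executor of necroptosis, fell by 2.37 ± 0.17. Neither LTBR, BID nor MLKL overlapped between Ctl and NaB, and the adjusted p values were 1.43e-08, 1.05e-14 and 7.30e-10.

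The genes listed under inhibitors, which include regulators of RIPK1 complexes, went both ways. FAIM, an inhibitor of FAS-induced apoptosis, fell by 2.29 ± 0.31 (adjusted p = 2.15e-06). CYLD, a deubiquitinase that acts on RIPK1 complexes, rose by 2.15 ± 0.22 (adjusted p = 6.61e-08), and BIRC3 (cIAP2), a ubiquitin ligase of the same complexes, rose by 1.46 ± 0.10 (adjusted p = 4.70e-10). With normexp the change of CYLD was 0.67 (adjusted p = 0.0332) and that of BIRC3 was 0.63 (adjusted p = 0.0103), neither called. XIAP and the adaptor DEDD were also called lower and CASP9 higher. Of 6 other caspase genes, CASP9 alone was called. All 6 passed the adjusted p, as did 68.3% of all probes.

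In DoxyNaB/Doxy, 11 of the 31 were called, 3 higher (against 18.3% of all probes) and 8 lower (against 12.3%). LTBR changed by -3.65, BID by -2.68, FAIM by -2.47, MLKL by -2.37, TNFSF12 by -2.10, TNFSF14 by 2.66, CYLD by 1.57 and CASP9 by 1.42. BIRC3 dropped out and TNFRSF21 joined the list. In DoxyNaB/NaB 0 of 31 were called, against 0.374% of all probes, and in Doxy/Ctl 0 of 31, against 0.0949%. An unadjusted p under 0.05 was reached by 8 in each. Without the fold threshold, 2 passed in DoxyNaB/NaB, against 2.48% of all probes. These were BIRC3 with -0.51 (adjusted p = 0.00611) and TNFRSF6B. TNFRSF6B, a soluble decoy for FAS ligand, had levels of 0.15 over 0.48 to 0.88 in NaB and 1.03 over 1.11 to 1.82 in DoxyNaB, and its change of 0.71 ± 0.08 in DoxyNaB/NaB (adjusted p = 9.19e-06) was short of 2-fold.

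BIRC3 was the one pathway gene of the 31 whose interaction passed. Its levels ran from -3.62 over -3.36 to -3.18 in Ctl, from -2.08 over -1.90 to -1.75 in NaB, from -3.22 over -3.05 to -2.63 in Doxy and from -2.88 over -2.37 to -2.13 in DoxyNaB. NaB and Ctl were far apart, whereas DoxyNaB and Doxy overlapped. The butyrate response was 1.46 without and 0.60 with doxycycline, a difference of 0.86 ± 0.15 (adjusted p = 0.00219) that was positive in 6 of 6 experiments. Without experiment 1, 3, 5 or 6 the difference was 0.87, 0.77, 0.75 and 0.87, but it missed the threshold (adjusted p = 0.0171, 0.0173, 0.0161 and 0.0164). With normexp it was 0.01 (adjusted p = 0.987).

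**Figure D5:**
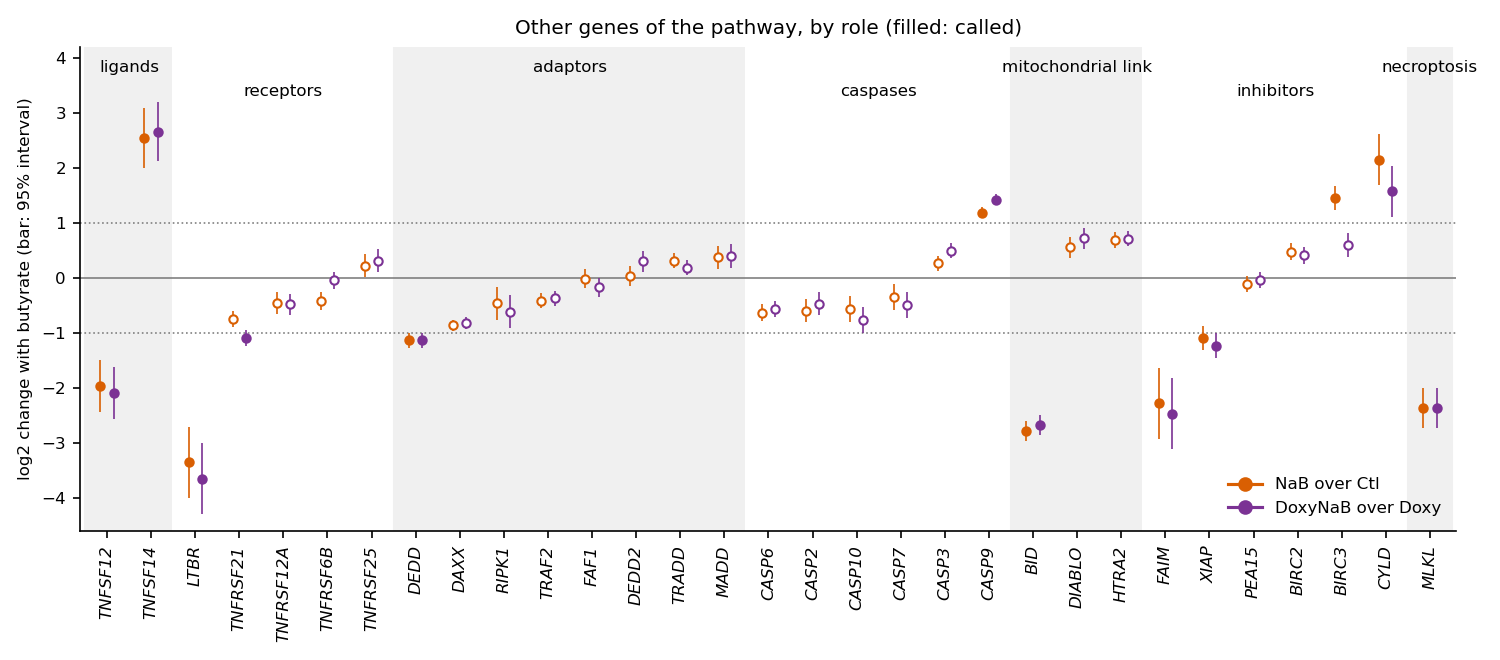
Log2 change with butyrate (y axis, with 95% intervals) of the 31 other pathway genes tested (x axis, grouped by role), for NaB over Ctl and DoxyNaB over Doxy, filled where called. LTBR and BID lay lowest, TNFSF14 highest, and for BIRC3 the 2 comparisons lay apart (1.46 and 0.60).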

How the data were processed

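Total RNA of 24 cultures was read on 1-colour Agilent arrays. Per the file headers, Agilent Feature Extraction 9.5.3.1 had made the deposited intensity of each spot (the processed signal) by removing background and spatial trend within the array; no step had put different arrays on a common scale. The methods name a paired test, and coordinates are on NCBI36. Control spots and spots marked as outliers were left out, spots of a probe were averaged as log2, and the log2 of the array's 75th percentile over non-control spots was subtracted. No read depth exists for arrays, and their number (6 per group) and signal over background limit the precision.

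Probes well above background (multiplier 13) on all 6 arrays of at least 1 group were fitted in R 4.3.3 with limma 3.58.1 (lmFit, eBayes) over all 24 arrays, with the experiment as block. The pairing comes from the experiment number in the titles, the paired test of the methods and the shared slides of experiments 2 to 6. Levels centred on their group correlated within experiments with r of 0.39 to 0.85, apart from experiment 3 (lowest r = -0.22). P-values were adjusted over all probes by Benjamini-Hochberg. Intervals cover 95%. The fit was tested on simulated data. Groups came from the titles. A gene was represented by its brightest probe. All 10 members were named, other pathway genes where called (the 8 of largest change per comparison) or where the interaction passed. A single gene of the marker lists is not reported here. TCF7L2, TNFRSF6B, XIAP, DEDD, CASP9 in NaB/Ctl, TNFRSF21 and the untested ligands were named beyond this rule, after their values were seen. The members, lists and tests were chosen with earlier results of these data known. Alternatives were other background corrections, scalings, filters, blocks, thresholds and subsets of experiments. Tables and plots were made in Python 3.11.15 with pandas 2.3.3 and matplotlib 3.10.9.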

Additional observations from a re-analysis of the deposited data

Results flagged for a closer look

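CASP8 stood apart in experiment 1. Among the 6 arrays of each group, the experiment 1 value of its brighter probe lay further from the others than Dixon's test allows, at -2.03 in Ctl, -2.90 in NaB, -1.40 in Doxy and -2.85 in DoxyNaB. Its coding probe did the same, at -6.67, -6.56, -5.50 and -7.34, where experiments 2 to 6 lay between -4.01 and -1.14. On average over the 4 groups, the brighter probe deviated by -1.62 from the other experiments, and 2.15% of 18807 tested probes with values on all arrays were as low or lower. The butyrate change within experiment 1 was -0.86 in NaB/Ctl and -1.45 in DoxyNaB/Doxy. Slide and scan moved with experiment 1, and their part was not tested.

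Other arrays that stood apart by the same test were the FAS arrays of experiment 1 (second probe, -0.51 in Ctl, -3.16 in NaB and -0.64 in Doxy; coding probe, -4.99 in Doxy), the TNFRSF10D array of Doxy in experiment 1 (1.10), the TNFRSF10A array of Ctl in experiment 2 (1.22) and the TNFRSF1A array of NaB in experiment 3 (-5.19). Of the 60 sets of 6 arrays checked, 15 held such a value, where chance gives about 1 in 20 for independent sets. The sets are not independent, since the probes share arrays and some share a gene, so the excess cannot be sized. All but the TNFRSF10A and TNFRSF1A arrays were of experiment 1.

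The butyrate response of BIRC3 differed with and without doxycycline by 0.86 (interaction, adjusted p = 0.00219).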

How the results depend on the processing

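Member probes called in NaB/Ctl numbered 7, and 3 when only probes well above background on all arrays were tested. That filter left 4 of the 7 untested, and 1640 of all 14514 probes it kept were called lower. In DoxyNaB/Doxy the member probes called numbered 8, 4 with that filter (1767 of all 14514 called lower) and 3 with normexp. Without the replicate block they numbered 6 and 8; the pairing by experiment thus decided the NaB/Ctl call of the coding FAS probe (adjusted p = 0.0206 without it) and of no gene's brightest probe. The methods' t-test, adjusted, gave 7 in each. Leaving out each experiment gave 6 to 7 and 8 to 8. Single gene values that turned sign were TNFRSF10D in NaB/Ctl with the median (-0.15), TNFRSF10C in DoxyNaB/Doxy with normexp (0.11) and FADD with normexp (0.039 in NaB/Ctl) and quantile normalization (0.12 in NaB/Ctl, 0.0087 in DoxyNaB/Doxy). Of the other single gene values in these 2 comparisons, 325 kept their direction and side of the threshold, 5 gained the call and 3 lost it. In the 3 comparisons with 0 members called, the sign differed in 48 of 507 values, by at most 0.46 in size, and 0 gained a call. Other pathway genes called in NaB/Ctl numbered 11, but 5 with normexp and 19 with the median (2 higher, 17 lower). In DoxyNaB/Doxy they numbered 11, but 17 with the median, 17 at a fold over 1.5 and 7 with the filter on all arrays. In DoxyNaB/NaB a fold over 1.5 gave 1, TNFRSF6B. The interaction count of 1 became 0 with normexp, the median, the methods' t-test, experiments 2 to 4 only and experiments 5 and 6 only, and was 0 to 1 without each experiment. Over all probes the interaction passed for 43, 9, 0, 5 and 0 in these 5 settings, and BIRC3 itself gave 0.0087, 0.67, 0.86, 0.71 and 1.12. With quantile normalization it was 1, but for TNFRSF21 and not BIRC3. A pair of alternatives, the 75th percentile over probes and the fit that leaves out NaB of experiment 3 and DoxyNaB of experiment 2, were chosen after seeing the data. The cause of these shifts was not tested. Values near the detection limit (TNFSF10, CFLAR, TNFRSF1A and the coding FAS probe) limit the size of a fall that can be measured.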
